A study of Mus musculus with 14 samples.

Results

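The genes described here are 38 mouse genes of glycolysis and of the response to low oxygen, chosen by name from the 51789 genes of a count table made from 14 mouse tumours. Each of the 38 names was found in a single row of the table, and all 38 passed the filter on low counts, which kept 17294 genes for testing. They comprise 16 genes of glucose uptake and glycolysis, 2 that set the fate of pyruvate, 3 genes of secreted factors and pH control, 5 mitochondrial genes, 4 of oxygen-sensing feedback, 4 of collagen and matrix, and 4 of stress and redox control. Levels are given as CPM, a gene's counts scaled to a library total of 1000000 counts. All log2 fold changes come from edgeR.

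When oxygen is low, the prolyl hydroxylases that mark the HIF alpha subunits for destruction lose activity, and HIF, the hypoxia-inducible factor, then pairs with ARNT and binds short hypoxia response elements near its target genes. The best known targets raise glucose uptake and glycolysis, turn pyruvate into lactate and keep it out of the citric acid cycle. Others remove mitochondria by mitophagy and remodel matrix and vessels. Acetate can be turned into acetyl-CoA by the enzyme ACSS2, which tumour cells are known to draw on when oxygen is scarce.

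Bulk RNA of mouse tumours was counted in 4 groups, in a study of ACSS2 inhibition in a triple negative breast cancer model. Mice of the strain labelled NGS carried 3 tumours given vehicle and 3 given ACSS2i, an inhibitor of ACSS2, and mice of the strain labelled C57BI/6 (C57BI6 in the library names) carried 4 of each. The sources used here leave unstated which strain NGS stands for, the tumour line, the dose, how long treatment lasted and the age of the mice. The design line of the series speaks of different Bmal1 status, but no label gives a library such a status, so none was used. Libraries are named by group and replicate number, lists of values follow that number, and nothing in the labels says whether replicates were separate animals, so p-values measure only the spread between these libraries.

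Depth followed the strain: library totals were 2846161 to 4701101 counts in NGS and 17645504 to 20344809 counts in C57BI6, so strain and depth cannot be told apart. The libraries also differed in tissue that is not tumour. The summed level of 12 skeletal muscle genes was 341, 7065 and 3141 CPM in NGS vehicle and 739.9, 20.03 and 26.0 CPM in NGS ACSS2i, and it ran from 5.61 to 3169 CPM in C57BI6. The sum of 8 keratinocyte genes was 1192 CPM in NGS vehicle 1 and 402 CPM in NGS ACSS2i 1, against 18.8 to 63.1 CPM in the other 4 NGS libraries and 10.9 to 16.5 CPM in C57BI6. The T cell sum was 2.77 to 8.78 CPM in NGS and 12.2 to 60.8 CPM in C57BI6. Of its 8 genes, Cd3e and Cd3g had 0 counts in every NGS library, and Cd3d, Cd8a and Cd2 had up to 1, 2 and 3. In the same libraries Trac had 0 to 8 counts, Cd4 2 to 12 and Cd8b1 3 to 17. Cd3g also had 0 counts in the deeper C57BI6 vehicle 2. The sum of 7 adipocyte genes was 146, 63.4 and 1183 CPM in NGS vehicle, 245 to 782 CPM in NGS ACSS2i and 15.2 to 374 CPM in C57BI6. The neutrophil sum was 15.4 to 77.6 CPM in NGS and 93.2 to 153 CPM in C57BI6, and the macrophage sum 1224 to 2147 CPM in NGS vehicle and 1995 to 2661 CPM in NGS ACSS2i. The part of these sums in the results was not tested. The sum of 8 epithelial genes was 227 to 327 CPM in NGS and 332 to 440 CPM in C57BI6, without overlap. Most of it was Krt8, at 187 to 380.4 CPM, while Epcam did not exceed 4.04 CPM in any library. Cdh1 went the other way in vehicle, at 35.1, 14.5 and 12.8 CPM in NGS and 5.16 to 9.32 CPM in C57BI6. The part of the epithelial sum in the results was not tested either. In bulk tissue, fewer cells of a type and less RNA per cell cannot be told apart.

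In NGS tumours, 7 of the 38 genes fell under ACSS2i, 0 rose and 31 did not pass the test (edgeR's quasi-likelihood test, two-sided, Benjamini-Hochberg adjusted p under 0.05 over 17294 genes). In this comparison 1.38% of all tested genes were called lower and 1.32% higher, 2.69% in all. The 7 were the glucose transporter Slc2a1, the glycolytic enzyme Eno1, the lactate dehydrogenase Ldha, the mitophagy receptor Bnip3, the oxygen sensor Egln3, the redox enzyme Ero1l and the stress gene Ndrg1. Their levels in treated tumours were 1.44 to 2.74-fold lower. They came from 6 of the 8 roles, and the secreted and the matrix genes gave no call.

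Many of the other members were also lower without passing. The log2 fold change was negative in 35 of 38 genes, against 51.2% of all tested genes, and its median was -0.56, against -0.01 over all genes. At an unadjusted p under 0.05, 25 members were lower, against 12.1% of all genes, and 0 were higher, against 10.1%. The groups did not overlap in 12 members, all with every treated library below every vehicle library, which held for 8.56% of all genes. Summed over the 38 genes, the level was 10926, 11362 and 8962 CPM in the NGS vehicle libraries and 9449, 7997 and 7513 CPM in the treated ones, so treated library 1 lay above vehicle library 3. The log2 fold change of each gene in both strains is shown by role in the plot of fold changes.

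**Figure D1:**
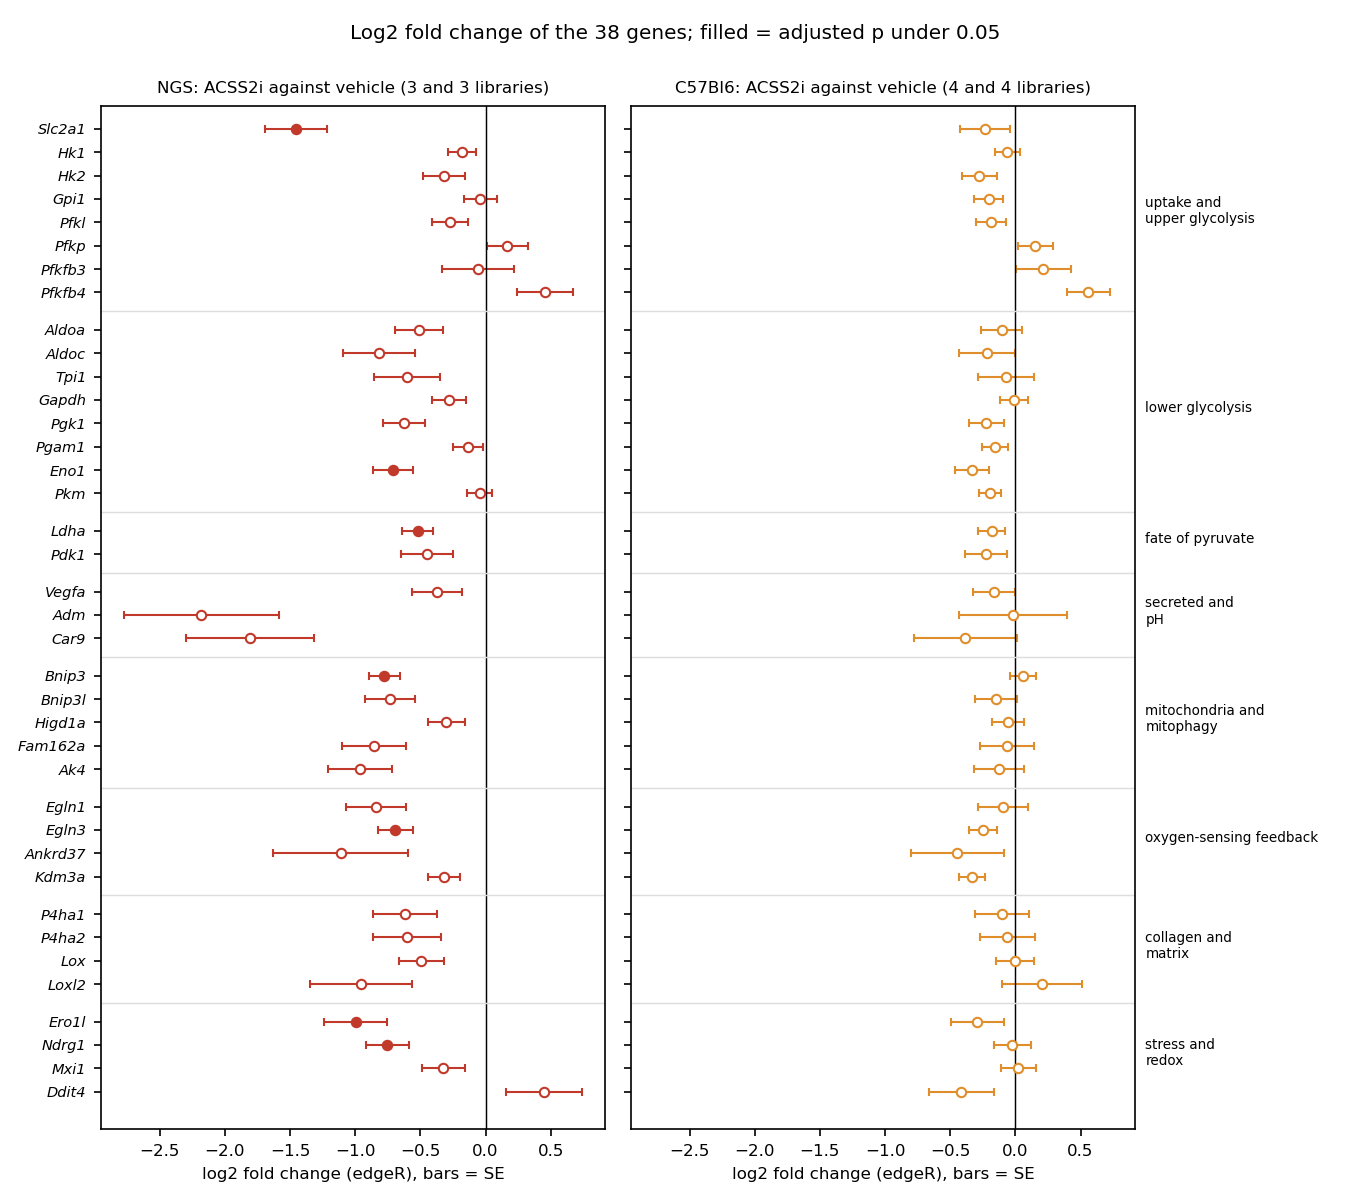
Log2 fold change (edgeR) of each of the 38 genes under ACSS2i against vehicle, with the standard error as bars, in NGS (left, 3 and 3 libraries) and C57BI6 (right, 4 and 4 libraries), grouped by role. Filled points have an adjusted p under 0.05: 7 genes in NGS, 0 in C57BI6. Of the NGS values 35 lie below 0, and of the C57BI6 values 32.

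The promoters of these genes were searched for the short sequence that HIF binds. RefSeq promoters (GRCm38.p6), 250 bases before to 50 after a start, were tabled for 34 of the 38 genes, 52 promoters in all. The core of the hypoxia response element was searched as ACGTG or GCGTG on either strand, so that CACGT and CACGC also count, and overlapping matches such as CACGTG count on both strands. It was found in 42 of the 52 promoters (80.8%), against 43.8% of the 32851 tabled promoters of all genes, and ACGTG itself in 53.8%, against 19.6%. By gene, 32 of the 34 (94.1%) held a core in at least 1 promoter, against 46.7% of all genes with a tabled promoter. Most members that did not pass thus held a core too. The members were chosen partly as known HIF targets, so these shares are a description. The sequences that follow run 5′ to 3′ on the strand of the gene, with the cores in capitals. They are promoters of 5 of the 7 genes that fell, picked for holding a core. The last is that of Tpi1, a glycolytic member picked because its window held none. The difference between them was fixed by this choice. A match is a string of letters and not a measured binding site.
Bnip3, chr7:138909457-138909756, minus strand: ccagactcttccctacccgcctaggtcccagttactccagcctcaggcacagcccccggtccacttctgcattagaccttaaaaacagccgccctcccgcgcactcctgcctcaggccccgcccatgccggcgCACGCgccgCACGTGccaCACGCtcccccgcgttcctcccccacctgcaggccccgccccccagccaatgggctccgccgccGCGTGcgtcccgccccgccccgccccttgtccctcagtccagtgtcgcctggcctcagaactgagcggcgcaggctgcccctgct
Slc2a1, chr4:119108495-119108794, plus strand: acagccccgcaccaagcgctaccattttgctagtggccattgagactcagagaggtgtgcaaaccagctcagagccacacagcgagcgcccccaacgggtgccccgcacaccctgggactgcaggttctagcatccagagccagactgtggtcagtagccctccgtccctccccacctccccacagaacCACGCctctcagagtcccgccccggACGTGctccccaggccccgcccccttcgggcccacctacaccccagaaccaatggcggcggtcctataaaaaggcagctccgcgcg
Egln3, chr12:54203825-54204124, minus strand: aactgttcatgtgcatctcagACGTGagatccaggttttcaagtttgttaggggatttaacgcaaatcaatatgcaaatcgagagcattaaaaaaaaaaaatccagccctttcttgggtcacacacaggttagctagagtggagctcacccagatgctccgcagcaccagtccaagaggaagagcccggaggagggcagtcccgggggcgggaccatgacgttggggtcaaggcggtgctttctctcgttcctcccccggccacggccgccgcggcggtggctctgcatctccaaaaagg
Eno1, chr4:150236458-150236757, plus strand: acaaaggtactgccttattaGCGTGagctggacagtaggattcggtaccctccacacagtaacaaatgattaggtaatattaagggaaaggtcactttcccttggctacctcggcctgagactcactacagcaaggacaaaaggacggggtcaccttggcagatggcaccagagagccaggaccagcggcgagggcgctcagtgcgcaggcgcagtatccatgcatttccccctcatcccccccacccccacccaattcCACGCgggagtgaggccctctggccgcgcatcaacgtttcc
Ldha, chr7:46845554-46845853, plus strand: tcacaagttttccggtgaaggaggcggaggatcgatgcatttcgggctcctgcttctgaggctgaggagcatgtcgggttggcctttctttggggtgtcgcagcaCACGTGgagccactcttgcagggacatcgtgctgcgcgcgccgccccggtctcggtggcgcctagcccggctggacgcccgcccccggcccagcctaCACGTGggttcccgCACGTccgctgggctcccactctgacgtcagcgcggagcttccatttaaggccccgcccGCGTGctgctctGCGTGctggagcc
Tpi1, chr6:124814109-124814408, minus strand: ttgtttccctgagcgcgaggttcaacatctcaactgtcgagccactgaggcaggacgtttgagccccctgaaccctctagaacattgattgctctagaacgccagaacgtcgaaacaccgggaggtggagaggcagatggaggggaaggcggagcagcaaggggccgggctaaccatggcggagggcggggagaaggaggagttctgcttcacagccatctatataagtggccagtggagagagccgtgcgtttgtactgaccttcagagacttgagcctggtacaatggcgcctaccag
The Bnip3 window held 5 cores and the Ldha window 7, of which 5 read ACGTG. Slc2a1 and Eno1 held 2 each and Egln3 held 1. Eno1 has 3 tabled starts and Ldha 2, and the first is shown.

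Slc2a1 encodes GLUT1, the main glucose transporter of many tumour cells (ENSMUSG00000028645, chromosome 4, 119108711 to 119137983, plus strand, protein-coding, GRCm38). Its level was 116, 101 and 71.5 CPM in NGS vehicle and 49.6, 20.03 and 38.2 CPM in NGS ACSS2i. Every treated library lay below every vehicle library, with treated library 2 the lowest. It fell from 96.2 ± 22.5 to 35.9 ± 14.9 CPM (here and below mean ± SD over 3 libraries a group). The log2 fold change was -1.46 ± 0.24 (± SE, as for all others; adjusted p by edgeR = 0.0102), the widest of the 7. The other 7 genes of uptake and upper glycolysis did not pass, with 1 of the 8 called. The hexokinases Hk1 and Hk2, which trap glucose by phosphorylation, had log2 fold changes of -0.18 and -0.32. Gpi1, the isomerase of the next step, had -0.04 on the same scale, and the phosphofructokinase subunits Pfkl and Pfkp had -0.27 and 0.17. The RNA end of Pfkp overlaps Pitrm1 on the opposite strand (7158 counts, against 19047 for Pfkp), and the use of strand in the authors' counting is not known here. Pfkfb3 and Pfkfb4 make the activator of phosphofructokinase, and their log2 fold changes were -0.06 and 0.46. The adjusted p of these 7 genes ran from 0.231 for Pfkfb4 to 0.952 for Pfkfb3. Of these 7, Hk2 and Pfkl had every treated library below every vehicle library, by narrow margins.

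Lower glycolysis gave 1 call among 8 genes. Eno1 is the enolase of most tissues (ENSMUSG00000063524, chromosome 4, 150236721 to 150248879, plus strand, protein-coding). Its level was 336, 324 and 216 CPM in NGS vehicle and 201, 178 and 174 CPM in NGS ACSS2i. The groups did not overlap, although vehicle library 3 stood far closer to the treated libraries than vehicle libraries 1 and 2 did. It fell from 292 ± 66.3 to 184 ± 14.3 CPM, a log2 fold change of -0.71 ± 0.15 (edgeR adjusted p = 0.0278). Eno1b, an annotated gene with a near-identical match to the RNA end of Eno1, held 52483 counts against 41922 for Eno1, so the split between both is uncertain. With the counts of Eno1 and Eno1b summed, the log2 fold change was -0.73 ± 0.17 (edgeR adjusted p = 0.0396).

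The other glycolytic enzymes from aldolase on were lower in mean without passing. Pgk1, the first step of the pathway that yields ATP, was at 968, 994 and 632 CPM in vehicle and 689, 515 and 529 CPM under ACSS2i. Its vehicle library 3 lay between the treated libraries, and the log2 fold change was -0.63 ± 0.16 (edgeR adjusted p = 0.05001, just outside the threshold). Tpi1, the triose isomerase whose window is printed above without a core, had a log2 fold change of -0.61, and the aldolases Aldoa and Aldoc had -0.51 and -0.82. Aldoa is also abundant in muscle: its highest level, 1543 CPM, was in NGS vehicle 2, the library with the highest muscle sum. Gapdh (-0.28), the mutase Pgam1 (-0.14) and the pyruvate kinase Pkm (-0.05) had the smallest log2 fold changes of the group.

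Both genes that set the fate of pyruvate were lower in mean, and 1 of the 2 passed. Ldha turns pyruvate into lactate (ENSMUSG00000063229, chromosome 7, 46841475 to 46855627, plus strand, protein-coding) and was at 619.9, 673 and 531 CPM in NGS vehicle and 519.6, 391 and 399 CPM in NGS ACSS2i. The groups were separated by the narrow gap between vehicle library 3 and treated library 1. Ldha fell from 608 ± 71.6 to 436 ± 72.3 CPM, a log2 fold change of -0.52 ± 0.12 (edgeR adjusted p = 0.0377). Pdk1, the kinase that keeps pyruvate from entering the mitochondrial citric acid cycle, was at 62.5, 51.8 and 45.2 CPM and 55.1, 27.8 and 37.4 CPM. Treated library 1 lay above vehicle libraries 2 and 3, and the log2 fold change of -0.45 ± 0.20 did not pass (adjusted p = 0.205).

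The mitochondrial genes gave 1 call among 5. Bnip3, a receptor that sends mitochondria to autophagy (ENSMUSG00000078566, chromosome 7, 138890836 to 138909519, minus strand, protein-coding), had the smallest p of the 38. It was at 154, 142 and 129 CPM in NGS vehicle and 98.4, 80.8 and 76.1 CPM in NGS ACSS2i. The groups were well apart, and each vehicle library lay above the highest treated one. Bnip3 fell from 142 ± 12.1 to 85.1 ± 11.7 CPM, a log2 fold change of -0.78 ± 0.12 (edgeR adjusted p = 0.00746). Its relative Bnip3l, also a mitophagy receptor, was at 324, 276 and 231 CPM and 243, 123 and 149 CPM. Treated library 1 lay within the vehicle range, and the log2 fold change was -0.73 ± 0.19 (adjusted p = 0.0523). The mitochondrial adenylate kinase Ak4 had a log2 fold change of -0.96 (adjusted p = 0.0504), with its groups apart. Fam162a, a mitochondrial protein induced by low oxygen, had a log2 fold change of -0.86 (adjusted p = 0.0696), and Higd1a, a small inner membrane protein tied to respiratory complexes, at -0.30.

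Of the 4 genes of oxygen-sensing feedback, 1 passed. Egln3 is a prolyl hydroxylase that marks HIF for destruction and is itself induced by HIF (ENSMUSG00000035105, chromosome 12, 54178981 to 54203860, minus strand, protein-coding). It was at 60.2, 73.5 and 59.9 CPM in NGS vehicle and 48.5, 39.4 and 35.7 CPM in NGS ACSS2i, with no overlap. Egln3 fell from 64.5 ± 7.77 to 41.2 ± 6.58 CPM, a log2 fold change of -0.69 ± 0.14 (edgeR adjusted p = 0.0182). Its relative Egln1, the main HIF hydroxylase, had a log2 fold change of -0.84 (adjusted p = 0.0614) with overlapping groups. That of the histone demethylase Kdm3a was -0.32. Ankrd37, a small ankyrin repeat protein, had a log2 fold change of -1.11 with NGS levels from 0.351 to 10.8 CPM; its RNA end overlaps the more abundant Ufsp2 on the opposite strand, and the use of strand in the authors' counting is not known here.

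Stress and redox genes gave 2 calls among 4. Ndrg1, a stress gene induced by low oxygen (ENSMUSG00000005125, chromosome 15, 66929318 to 66969640, minus strand, protein-coding), was at 289.9, 238 and 220.1 CPM in NGS vehicle and 203, 125 and 129 CPM in NGS ACSS2i. The groups did not overlap, with treated library 1 close below vehicle library 3. Ndrg1 fell from 249 ± 36.2 to 152 ± 44.1 CPM, a log2 fold change of -0.75 ± 0.17 (edgeR adjusted p = 0.0306). Ero1l, the oxidase that forms disulfide bonds in the endoplasmic reticulum (named Ero1a in newer annotations, ENSMUSG00000021831, chromosome 14, 45283087 to 45318771, minus strand, protein-coding), was at 235, 176 and 135 CPM and 138, 67.8 and 75.1 CPM. Treated library 1 lay just above vehicle library 3, so Ero1l was the only one of the 7 whose groups overlapped. It fell from 182 ± 50.2 to 93.7 ± 38.7 CPM, a log2 fold change of -0.998 ± 0.24 (edgeR adjusted p = 0.0431). Mxi1, an antagonist of Myc, had a log2 fold change of -0.33. Ddit4, an inhibitor of mTORC1 signalling, had a positive log2 fold change of 0.45 ± 0.29 (adjusted p = 0.385).

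The lowest log2 fold changes of the 38 belonged to Adm and Car9, among the secreted and pH genes, of which 0 of 3 passed by edgeR. Car9, the carbonic anhydrase that acidifies the space outside hypoxic cells (ENSMUSG00000028463, chromosome 4, 43506966 to 43513729, plus strand, protein-coding), was at 166, 143 and 82.7 CPM in NGS vehicle and 79.7, 8.08 and 26.5 CPM in NGS ACSS2i. Treated library 1 was just below vehicle library 3, while treated libraries 2 and 3 were far below all others. The log2 fold change was -1.81 ± 0.49 (edgeR adjusted p = 0.0609), from -2.91 without NGS ACSS2i 1, where it passed (0.00164), to -1.33 without NGS ACSS2i 2. Adm, which encodes the vessel-widening peptide adrenomedullin (ENSMUSG00000030790, chromosome 7, 110627661 to 110629820, plus strand, protein-coding), was at 7.45, 6.91 and 30.4 CPM in vehicle and 3.15, 3.16 and 3.72 CPM under ACSS2i. Every vehicle library lay above every treated one, but the vehicle mean rested on vehicle library 3. Adm had a log2 fold change of -2.18 ± 0.59 (adjusted p = 0.0609), and -1.11 without NGS vehicle 3. Vegfa, the growth factor of new vessels, had a log2 fold change of -0.37 (adjusted p = 0.266). At an unadjusted p under 0.05 by edgeR, Car9 and Adm were lower, 2 of the 3, and the DESeq2 test called both (adjusted p = 0.0271 for Car9 and 0.00482 for Adm), while limma voom called 0 of the 3.

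Collagen and matrix genes also gave 0 calls among 4 by edgeR, and all 4 were lower at an unadjusted p under 0.05. The collagen prolyl hydroxylase subunits P4ha1 and P4ha2 had log2 fold changes of -0.62 and -0.61, and the crosslinking enzymes Lox and Loxl2 had -0.49 and -0.96. The adjusted p ran from 0.115 for Lox to 0.191 for P4ha2, and the DESeq2 test and limma voom also called 0 of the 4. The RNA end of Loxl2 holds a stretch that matches 61 other genes, so its counts are uncertain. The summed level of 7 fibroblast genes was 7749 to 8655 CPM in NGS vehicle and 6315 to 7193 CPM in NGS ACSS2i, without overlap. Its genes did not move together. Dcn (1811, 1184 and 1183 CPM against 809, 449 and 596 CPM), Col1a2 and Col3a1 were lower in every treated library. Col1a1 was at 2134, 2286 and 2438 CPM in vehicle against 1923, 3995 and 3026 CPM under ACSS2i. Pdgfra was at 47.6, 38.2 and 40.2 CPM against 52.5, 40.8 and 53.0 CPM. The part of this sum in the values of the matrix genes was not tested.

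**Figure D2:**
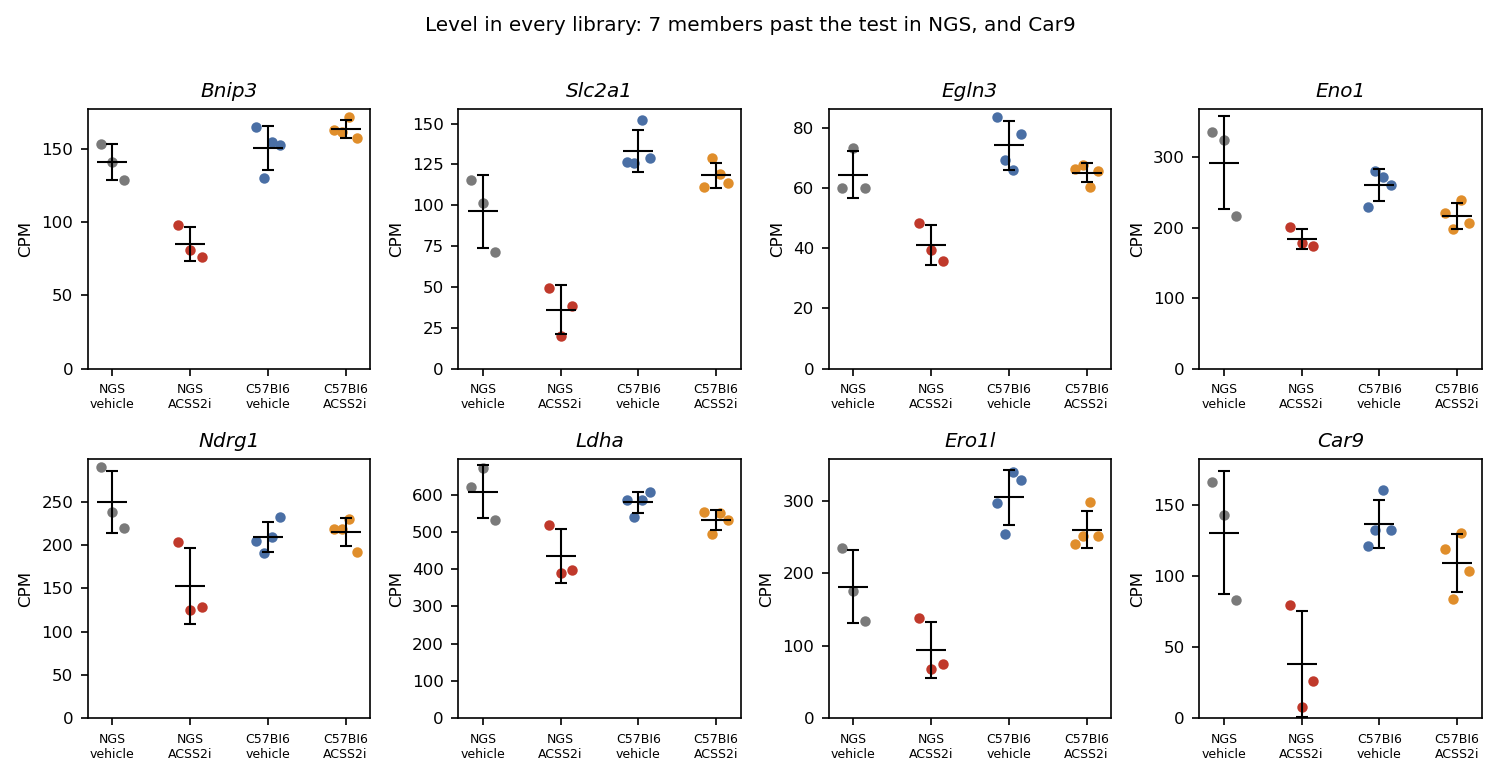
Level in CPM (vertical axis, from 0) in every library of the 4 groups (horizontal axis) for the 7 genes past the test in NGS and for Car9, with the mean and SD of each group as lines. In NGS the treated points of all 8 genes except Ero1l lie below all vehicle points, and the C57BI6 groups overlap for all 8.

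Treated library 1 stood apart from treated libraries 2 and 3. After TMM scaling it was the highest of its group in 25 of the 38 genes. In CPM it was below every vehicle library in 16 genes, against 28 for treated library 2 and 30 for treated library 3. On the vehicle side, library 3 was the lowest of its group in 27 genes after TMM scaling, and treated library 1 exceeded it in 20 genes in CPM. Treated library 1 and vehicle library 1 were the libraries with high keratinocyte sums, and vehicle libraries 2 and 3 those with high muscle sums. Without NGS ACSS2i 1 the edgeR test called 21 members lower, and 978 of all 17818 genes tested, against 238 with all libraries. It called 3 without NGS vehicle 1 (93 of all 17811 genes lower) and 2 without NGS vehicle 2 (109 of 17936). Without treated NGS library 2 or 3 it also called 2 (49 of 17936 and 78 of 17945 genes). The C57BI6 libraries enter through the shared spread. Without C57BI6 vehicle 3, C57BI6 ACSS2i 1 or C57BI6 ACSS2i 2, 4 members were called (127 of 17251, 126 of 17222 and 125 of 17194 genes). The calls of Bnip3 and Slc2a1 were kept without any 1 of the 14 libraries, with adjusted p up to 0.034 for Bnip3 and 0.0372 for Slc2a1.

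The other 5 calls each depended on single libraries. Egln3 no longer passed without NGS vehicle 2 or treated NGS library 2 or 3 (edgeR adjusted p up to 0.065). Eno1 was lost without NGS vehicle 1 or 2 or NGS ACSS2i 2 or 3 (up to 0.0849). Ndrg1 was lost without those 4 and without C57BI6 vehicle 3 or C57BI6 ACSS2i 1 or 2 (up to 0.108). Ldha was lost without those 4 NGS libraries, C57BI6 vehicle 1 or 3 or any C57BI6 ACSS2i library (up to 0.115). Ero1l was kept only without NGS vehicle 3 or NGS ACSS2i 1 (otherwise up to 0.141).

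The number of calls also depended on the fit, while the sign of the log2 fold change of each of the 7 was the same in all alternatives run. Fitted on the 6 NGS libraries alone, edgeR called 0 of the 38 (9 genes of 12548 in all), with 17 lower at an unadjusted p under 0.05, log2 fold changes of the 7 from -1.44 to -0.51 and adjusted p from 0.126 to 0.263. The DESeq2 test called 14 members (1546 of 28428 genes in all) and limma voom with quality weights 2 (Bnip3 and Slc2a1, 27 of 17294 genes). Here and below, the 28428 are all genes with any count. The DESeq2 test's own filter can leave some of them without an adjusted p. Its share among the genes it could call may therefore be higher. With no filter edgeR called 13 (486 of 28428 genes), and on libraries thinned to the smallest 13 (416 of 12956 genes), and all these members were lower. Left out together, the 4 libraries with a muscle sum above 1000 CPM gave 0 calls (18 of 18488 genes in all), with 16 lower and 1 higher at an unadjusted p under 0.05. That fit holds 1 NGS vehicle library, which is assumed to vary like the other groups; the median was -0.62 and the log2 fold changes of the 7 were -1.68 to -0.51. Without the 2 libraries with a keratinocyte sum above 300 CPM, 16 members were called lower (624 of 17546 genes), with a median of -0.68.

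**Figure D3:**
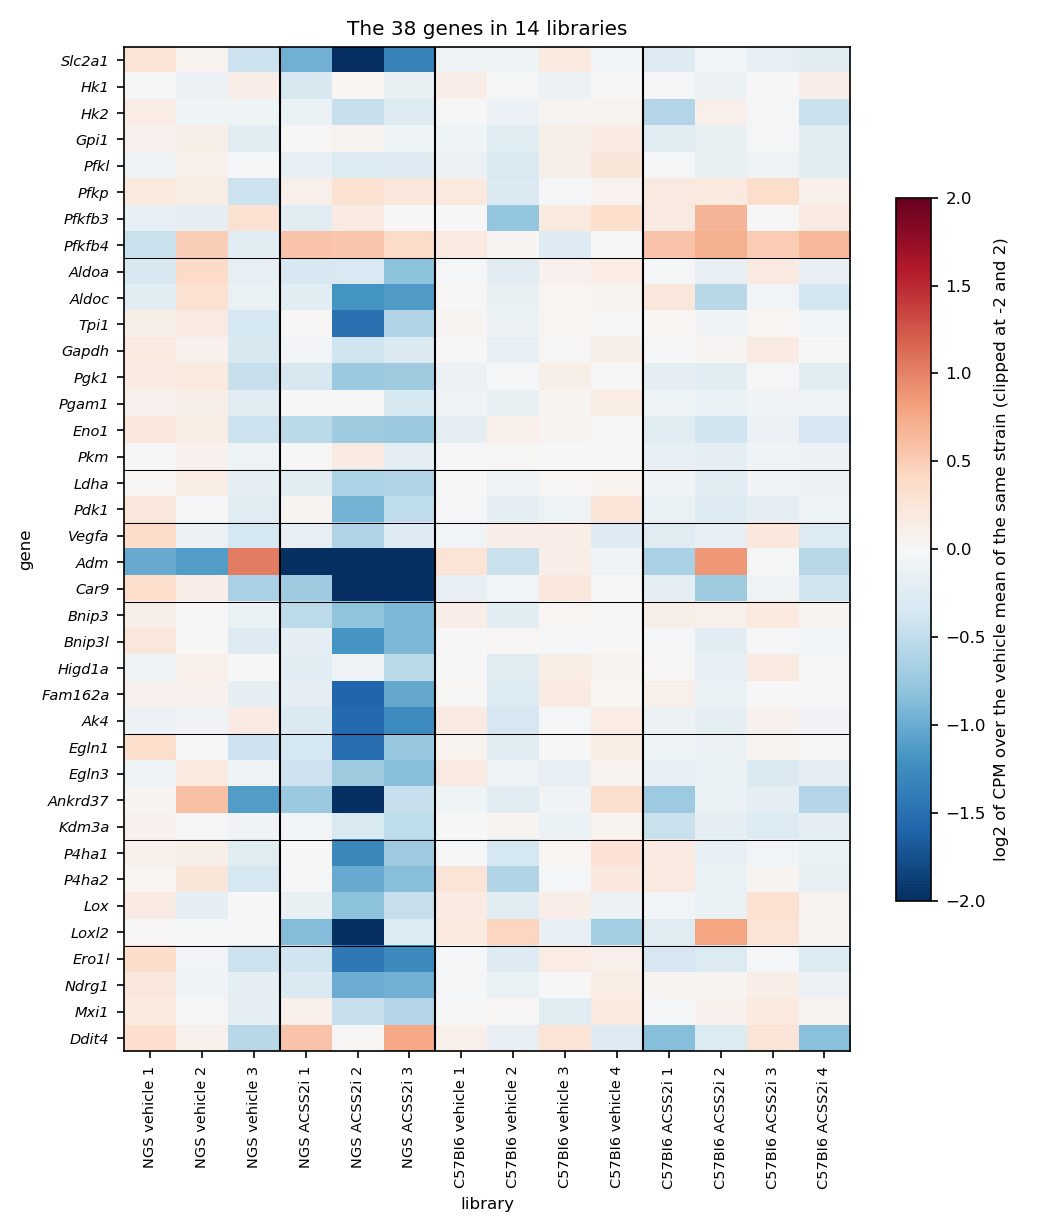
Level of each of the 38 genes (rows, by role) in each of the 14 libraries (columns) as log2 of the CPM over the vehicle mean of the same strain, with colours limited to -2 and 2. The columns of NGS ACSS2i 2 and 3 are the lowest (blue) for most genes, NGS ACSS2i 1 is closer to vehicle, and the 8 C57BI6 columns stay near 0 for most genes.

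In C57BI6 tumours, 0 of the 38 genes passed the edgeR test under ACSS2i, where 0.312% of all tested genes did. At an unadjusted p under 0.05, 4 members were lower (Kdm3a, Eno1, Pkm and Egln3), against 2.91% of all genes, and 1 was higher (Pfkfb4), against 5.05%. The log2 fold change was negative in 32 of 38 genes, against 52.3% of all genes, and the median was -0.14, against -0.01 over all genes. The groups did not overlap in 3 members that were lower (Kdm3a, Pkm and Bnip3l, against 1.89% of all genes) and 1 that was higher (7.05%). The distribution of log2 fold changes is shown in the cumulative plot of both strains.

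**Figure D4:**
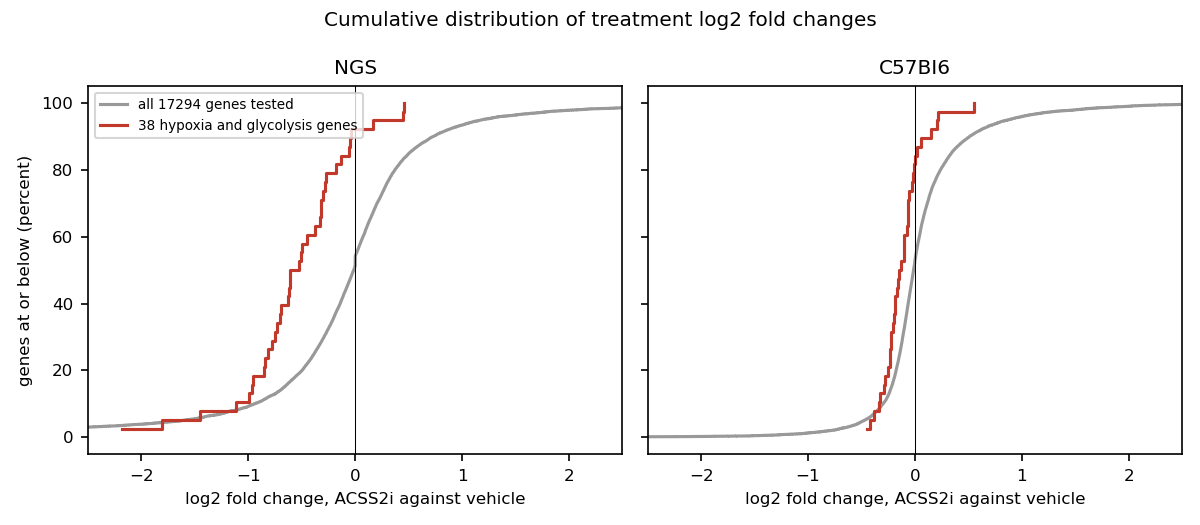
Percent of genes (vertical axis) with a log2 fold change under ACSS2i at or below the value on the horizontal axis, for the 38 genes (red steps) and for all 17294 tested genes (grey), in NGS and C57BI6; values beyond -2.5 and 2.5 are not drawn. The red steps lie to the left of the grey line over most of the NGS panel, where the medians are -0.56 and -0.01, and by less in C57BI6, where they are -0.14 and -0.01.

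Kdm3a, a histone demethylase induced by HIF, had the smallest p of the members in C57BI6 (ENSMUSG00000053470, chromosome 6, 71588972 to 71632990, minus strand, protein-coding). It was at 51.7, 54.1, 47.5 and 54.6 CPM in vehicle and 38.1, 45.6, 42.9 and 45.4 CPM under ACSS2i. Every treated library lay below every vehicle library, and the log2 fold change was -0.33 ± 0.10 (edgeR adjusted p = 0.225). Pfkfb4, which makes or removes the activator of phosphofructokinase, was at 9.89, 9.01, 7.29 and 8.67 CPM in vehicle and 13.0, 14.3, 12.4 and 13.7 CPM under ACSS2i (ENSMUSG00000025648, chromosome 9, 108991778 to 109032228, plus strand, protein-coding). Every treated library lay above every vehicle library, and the log2 fold change was 0.56 ± 0.16 (edgeR adjusted p = 0.242). Both passed with the DESeq2 test (adjusted p = 0.0199 and 0.0219) and with limma voom (0.0284 and 0.0253), and Pfkfb4 also in edgeR on the 8 C57BI6 libraries alone (0.0283). Without any 1 library, edgeR called 0 members.

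Eno1 was at 229, 281, 272 and 261 CPM in C57BI6 vehicle and 221, 198, 239 and 207 CPM in C57BI6 ACSS2i. The groups overlapped, and the log2 fold change of -0.33 ± 0.13 did not pass (edgeR adjusted p = 0.479), nor did that of Eno1 and Eno1b summed (-0.22, adjusted p = 0.84). Pkm, the last enzyme of glycolysis (ENSMUSG00000032294, chromosome 9, 59656368 to 59679375, plus strand, protein-coding), was at 1491, 1569, 1556 and 1543 CPM in vehicle and 1379.7, 1355, 1451 and 1424 CPM under ACSS2i. All treated libraries lay below all vehicle libraries by a small margin, and the log2 fold change was -0.20 ± 0.08 (adjusted p = 0.533). The 7 genes that fell in NGS had log2 fold changes from -0.33 (Eno1) to 0.06 (Bnip3) in C57BI6, with Slc2a1 at -0.24, Ldha at -0.18 and Ero1l at -0.29.

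The difference between the strains in the effect of ACSS2i was tested as an interaction (C57BI6 minus NGS), and 0 of the 38 genes passed by edgeR, where 0.0173% of all genes did. A positive value means that a gene was lower under ACSS2i in NGS than in C57BI6, relative to vehicle. At an unadjusted p under 0.05, 13 members were positive (7.56% of all genes) and 1 negative (6.22%). The median was 0.40, against 0.02 over all genes. The log2 fold change was lower in NGS than in C57BI6 for 32 of 38 genes, against 52% of all genes, and it was negative in both strains for 31, against 29.8% of all genes. The calls in NGS and their lack in C57BI6 do not by themselves show that the effects differ.

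Of the 38 genes, Bnip3 had the smallest p of the interaction. In C57BI6 it was at 165, 130.3, 155 and 153 CPM in vehicle and 163, 162, 172 and 158 CPM under ACSS2i, overlapping, beside the fall in NGS given above. The interaction was 0.83 ± 0.16 (edgeR adjusted p = 0.115). Slc2a1 was at 126, 126, 152 and 129 CPM in C57BI6 vehicle and 111, 129, 119 and 114 CPM under ACSS2i, also overlapping, with an interaction of 1.22 ± 0.31 (adjusted p = 0.197). Ndrg1 was at 205, 191, 209.5 and 232 CPM and 218, 219, 230.1 and 192 CPM, with an interaction of 0.73 ± 0.22 (adjusted p = 0.219). Adm was at 8.50, 5.19, 7.76 and 6.74 CPM and 4.51, 12.9, 6.91 and 4.78 CPM, with an interaction of 2.16 ± 0.72 (adjusted p = 0.248), and of 1.11 without NGS vehicle 3. The C57BI6 values of these 4 genes overlapped between treatments in each case.

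The DESeq2 test passed Bnip3 (adjusted p = 1.75e-04) and Slc2a1 (0.00986) in the interaction, among 296 of 28428 genes. By limma voom 0 members passed, and 0 of all 17294 genes. At an unadjusted p under 0.05 by limma voom, 18 members were positive and 1 negative, and the share over all genes was not counted. Without NGS ACSS2i 1 the edgeR test called 62 of 17818 genes, 45 of them positive, against 3 genes with all libraries. Among the 62 were 7 members, all positive: Ak4, Bnip3, Bnip3l, Car9, Fam162a, Ndrg1 and Slc2a1. Without both keratinocyte-rich libraries it called Ak4 and Bnip3 (34 of 17546 genes in all). Of the 7, 4 were mitochondrial genes. With all libraries the same 4, of the 5 in that role, were positive at an unadjusted p under 0.05, against 7.56% of all genes. Both counts draw on the same tumours, and the role was singled out after the values were seen. Those 4 were Bnip3, Bnip3l, Fam162a and Ak4, with interactions of 0.83, 0.59, 0.79 and 0.83. Ddit4 was the 1 member negative at that level (-0.86 ± 0.38, adjusted p = 0.341), with a positive log2 fold change in NGS and a negative one in C57BI6 (-0.41).

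Between vehicle tumours of the strains, 13 of the 38 genes were higher in C57BI6 than in NGS, 1 was lower and 24 did not pass (edgeR). Here 18.8% of all tested genes were higher and 14% lower, 32.8% in all. The glucose uptake and upper glycolysis genes had the most calls, 5 of 8 higher (Slc2a1, Hk1, Hk2, Gpi1 and Pfkl). The other 8 higher genes were Gapdh, Pgam1, Pdk1, Egln3, Kdm3a, Lox, Ero1l and Ddit4, and the lower one was Aldoc. The median over the members was 0.29, against 0.01 over all genes. This comparison shares its vehicle libraries with the treatment comparisons, and strain, depth and any other difference between both sets of mice cannot be told apart.

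Gapdh stood far apart from the rest (ENSMUSG00000057666, chromosome 6, 125161715 to 125166467, minus strand, protein-coding). This glyceraldehyde phosphate dehydrogenase, often used as a reference gene, was at 287, 269.6 and 203 CPM in NGS vehicle and 2411, 2157, 2455 and 2632 CPM in C57BI6 vehicle. Under ACSS2i it was at 244, 193 and 207 CPM in NGS and 2382, 2504, 2713 and 2396 CPM in C57BI6. The highest NGS library was far below the lowest C57BI6 library, a 10.6-fold difference between the vehicle groups (3.40 ± 0.14 on the log2 scale, edgeR adjusted p = 1.58e-10). Annotated genes with a match to the RNA end of Gapdh numbered 119 and together held 2191 counts, 0.579% of those of Gapdh. Their summed level was 7.19 to 13.1 CPM in NGS and 10.3 to 14.4 CPM in C57BI6, which is 3.18 to 4.92% of Gapdh in NGS and 0.396 to 0.605% in C57BI6. With them added to Gapdh the log2 fold change was 3.35 (adjusted p = 1.89e-10). How the authors counted reads that match several places is not known here, and its part in the low NGS level was not tested. The neighbouring steps gave no such gap: the log2 fold change between the vehicle groups was 0.09 for Tpi1 and -0.28 for Pgk1, and neither passed.

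The hexokinases were both higher in C57BI6. Hk1 was at 132, 125 and 147 CPM in NGS vehicle and 212, 190.2, 179 and 197 CPM in C57BI6 vehicle, and Hk2 at 147, 124 and 125 CPM and 211, 196, 223 and 224 CPM. Neither gene overlapped between the vehicle groups. The log2 fold changes were 0.68 ± 0.10 (edgeR adjusted p = 1.51e-04) and 0.85 ± 0.15 (adjusted p = 6.04e-04). Pgam1, which moves the phosphate before enolase, was at 1474, 1502 and 1196 CPM and 1706, 1614, 1860.2 and 1978 CPM. Its groups were apart as well, with 0.51 ± 0.11 (adjusted p = 0.00245). Pdk1 was at 76.4, 68.0, 72.0 and 92.7 CPM in C57BI6 vehicle, above each of its NGS vehicle libraries given above, with 0.69 ± 0.18 (adjusted p = 0.00925).

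Outside glycolysis, Kdm3a, Lox and Ero1l led the difference between the vehicle groups. Kdm3a was at 38.7, 35.9 and 34.7 CPM in NGS vehicle, below each C57BI6 vehicle library given above (0.66 ± 0.11, edgeR adjusted p = 3.85e-04). Lox, lysyl oxidase, was at 281, 219 and 251 CPM in NGS vehicle and 439, 332, 428 and 359.7 CPM in C57BI6 vehicle. It did not overlap (0.79 ± 0.16, adjusted p = 0.00168). Ero1l was at 298, 255, 339.7 and 329 CPM in C57BI6 vehicle, above the NGS vehicle libraries (0.90 ± 0.22, adjusted p = 0.00668).

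The calls of these 8 genes were kept without any 1 of the 14 libraries, and the 6 other calls were nearer the threshold. Slc2a1 (0.62), Gpi1 (0.43), Pfkl (0.37), Egln3 (0.35) and Ddit4 (1.01) were higher in C57BI6, and Aldoc, the aldolase of the brain, was lower (-0.84), each value a log2 fold change, with edgeR adjusted p from 0.012 to 0.0398. Gpi1 and Ddit4 were lost without NGS vehicle 3 (adjusted p = 0.0503 and 0.0556), and Aldoc without NGS vehicle 2 (0.0864). Slc2a1 was lost without NGS vehicle 2 or 3 or C57BI6 vehicle 3 or 4 (up to 0.141). Pfkl was lost without NGS vehicle 1 or 3 or C57BI6 vehicle 3 or 4 (up to 0.113), and Egln3 without NGS vehicle 1 or 3, C57BI6 vehicle 1 or 4, or treated C57BI6 library 1, 2 or 4 (up to 0.128). Leaving out the 4 muscle-rich libraries leaves NGS vehicle 1 alone in its group, so that fit cannot show which calls hold. The median log2 fold change of the members was then 0.23, against 0.08 over all genes. In that fit the 6 genes other than Gapdh and Hk1 in the plot of levels by strain had log2 fold changes from 0.50 to 0.75. With Eno1 and Eno1b summed, Eno1 was lower in C57BI6 vehicle (-0.44, adjusted p = 0.0454), where Eno1 alone gave -0.02 (adjusted p = 0.944).

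**Figure D5:**
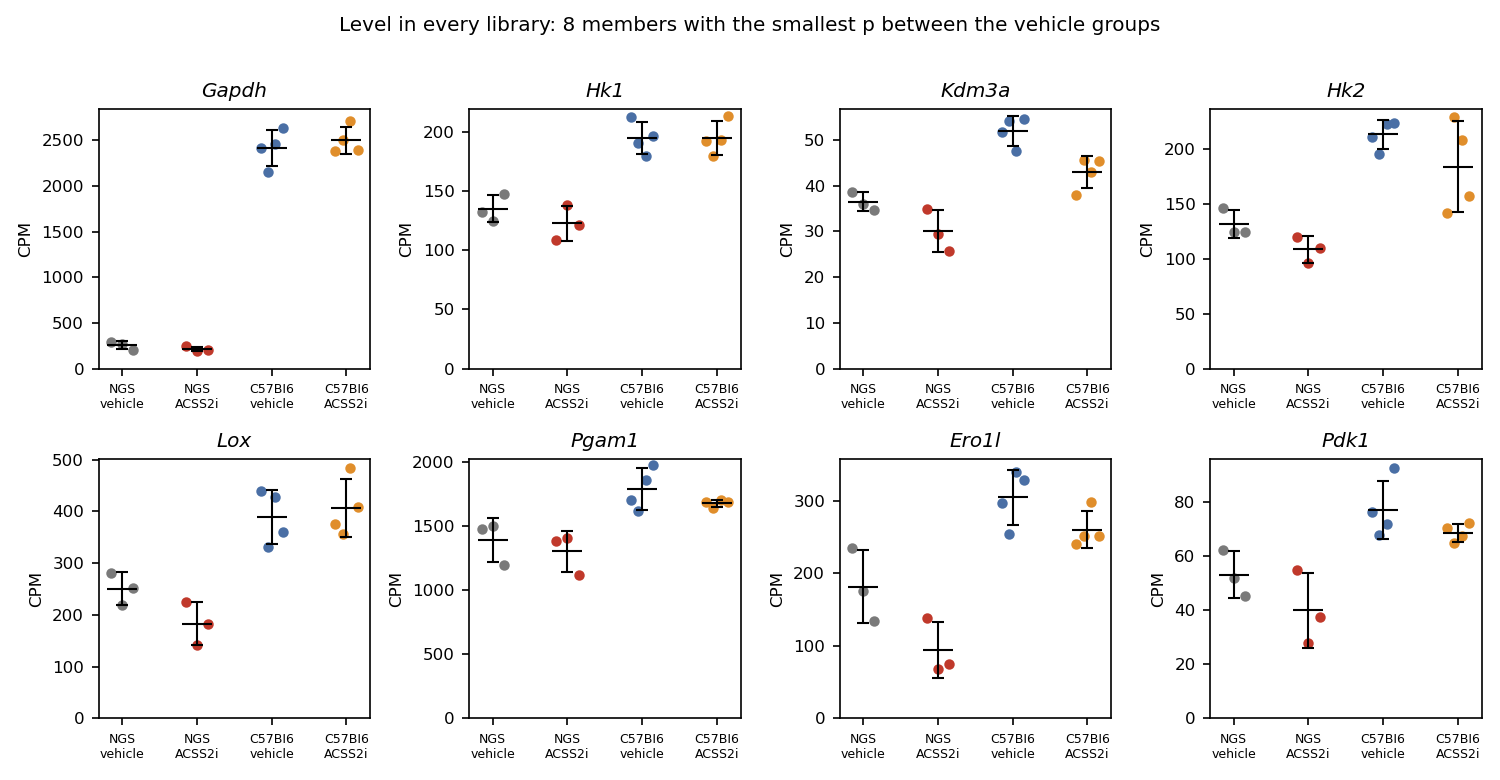
Level in CPM (vertical axis, from 0) in every library of the 4 groups for the 8 members with the smallest p between the vehicle groups, with the mean and SD of each group as lines. For Gapdh the 6 NGS points lie at 193 to 287 CPM and the 8 C57BI6 points at 2157 to 2713 CPM.

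Other genes of the same pathways were taken from 3 lists. Of 16 regulators of HIF, 15 were tested. In NGS only Cul2, the scaffold of the ligase that destroys HIF, was lower under ACSS2i (20.2, 12.2 and 18.8 CPM against 10.6, 10.2 and 9.17 CPM, -0.82 ± 0.20, edgeR adjusted p = 0.0428), and 14 did not pass. That call was lost without any 1 of 11 libraries (up to 0.118), with no filter (0.0517), after thinning (0.0834), on the NGS libraries alone (0.276) and with the replicate number as a block (0.0768). Over all tested genes edgeR called 1.38% lower in NGS. The DESeq2 test called Cul2 lower and Ep300 higher in NGS, among 1546 of 28428 genes, and limma voom called 0 of the 15. Hif1a itself, which is controlled mainly as a protein, was at 193 ± 32.5 CPM in NGS vehicle and 168 ± 9.11 CPM in NGS ACSS2i (mean ± SD, n = 3 each, -0.24, adjusted p = 0.268). In C57BI6 0 of 15 passed by edgeR, and 0 by DESeq2 or limma voom. At an unadjusted p under 0.05 by edgeR, 1 was lower (Crebbp) and 0 higher, against 2.91% and 5.05% of all tested genes. Between the vehicle groups 3 of the 15 were called, where 32.8% of all tested genes were. Hif1a (0.45, adjusted p = 0.00876) and Vhl (0.41, 0.0332), which brings HIF to its ligase, were higher in C57BI6, and Epas1, the HIF2 alpha subunit, was lower (-0.79, 0.0197). Vhl was lost without NGS vehicle 1 or 2 or C57BI6 vehicle 1, 3 or 4 (up to 0.128), and Epas1 without NGS vehicle 3 (0.101) or C57BI6 vehicle 2 (0.0526). The fit without the 4 muscle-rich libraries holds 1 NGS vehicle library and cannot show whether these 3 calls hold.

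Of 25 further isoenzymes and transporters of glycolysis, 19 were tested. Under ACSS2i 0 passed by edgeR in NGS and 0 in C57BI6. At an unadjusted p under 0.05, 4 were lower and 1 higher in NGS, against 12.1% and 10.1% of all tested genes. In C57BI6 0 were lower and 2 higher at that level, against 2.91% and 5.05%. The DESeq2 test called 2 in NGS (Bpgm and Pfkm, both lower), among 1546 of 28428 genes, and 0 in C57BI6. By limma voom 0 passed in both strains. The smallest p in NGS belonged to Bpgm, which makes 2,3-bisphosphoglycerate (-0.89, adjusted p = 0.0505), and to Pfkm, the muscle phosphofructokinase (-1.05, adjusted p = 0.0798). The muscle sums given above were higher in NGS vehicle 2 and 3 than in any treated NGS library, and their part in the value of Pfkm was not tested. Between the vehicle groups 4 were higher in C57BI6 (Slc2a3, Tigar, Hk3 and Eno2) and 4 lower, against the same 32.8%. Slc2a3, the glucose transporter GLUT3, was at 4.04, 3.00 and 0.713 CPM in NGS vehicle and 51.3, 50.01, 41.5 and 43.5 CPM in C57BI6 vehicle, without overlap (4.29 ± 0.34, adjusted p = 2.13e-07). Slc2a3 is one of the 61 genes that match the stretch at the RNA end of Loxl2. Where in Slc2a3 the match lies was not recorded, and its part in these counts was not tested.

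Of 31 other genes known to respond to low oxygen, all were tested. In NGS 2 were lower under ACSS2i, where 1.38% of all tested genes were. Insig2, which holds the cholesterol sensor SCAP in the endoplasmic reticulum, was at 37.4, 23.7 and 20.7 CPM in vehicle and 14.9, 13.4 and 12.6 CPM under ACSS2i (-1.05 ± 0.20, edgeR adjusted p = 0.018). Gbe1, the glycogen branching enzyme, was at 55.3, 50.5 and 47.1 CPM and 33.0, 16.2 and 32.7 CPM (-0.93 ± 0.21, adjusted p = 0.0306). Neither gene overlapped between the groups. Insig2 no longer passed without NGS vehicle 1 or treated NGS library 2 or 3 (adjusted p up to 0.0619), and Gbe1 without any NGS vehicle library, NGS ACSS2i 2, C57BI6 vehicle 3 or C57BI6 ACSS2i 1 (up to 0.0815). On the NGS libraries alone neither passed (0.189 and 0.225), and with the replicate number as a block Gbe1 did not (0.0501). The DESeq2 test called 5 of the 31 in NGS (3 lower and 2 higher), beside 1546 of 28428 genes in all. By limma voom 0 passed (adjusted p = 0.0931 for Insig2 and 0.083 for Gbe1), beside 27 of 17294 genes. The median over the 31 genes was -0.36, against -0.01 over all genes, and 23 were negative, against 51.2% of all tested genes. At an unadjusted p under 0.05, 11 were lower, against 12.1% of all genes, and 4 higher, against 10.1%. In C57BI6 0 of the 31 passed by edgeR, DESeq2 or limma voom. At an unadjusted p under 0.05 by edgeR, 4 were lower and 0 higher, against 2.91% and 5.05% of all tested genes. Between the vehicle groups 6 were higher and 7 lower in C57BI6, beside 18.8% and 14% of all tested genes, led by Wsb1, a ubiquitin ligase subunit (0.78, adjusted p = 6.57e-04), and Tmem45a (-2.63, 9.13e-04). In the interaction 0 genes of the 3 lists passed by edgeR or limma voom. At an unadjusted p under 0.05 by edgeR, 1, 4 and 4 genes of the 3 lists were positive, against 7.56% of all tested genes. At that level 1, 0 and 3 were negative, against 6.22%. The DESeq2 test called Bpgm, Insig2 and Kdm4b in the interaction, among 296 of 28428 genes.

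The median SD of log2 CPM over the 38 genes was 0.233 in vehicle and 0.27 in treated tumours of NGS, and 0.17 and 0.12 in those of C57BI6. In C57BI6 after TMM scaling, vehicle library 2 was the lowest of its group in 24 of the 38 genes, and treated library 3 the highest of its group in 18. Treated library 3 of C57BI6 also held the highest muscle sum of that strain, and its part in those levels was not tested.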

How the data were processed

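RNA of 14 bulk tumours was sequenced from the 3′ end with a QuantSeq kit, per the labels' protocols, and the authors deposited 1 table of whole-number counts per gene, with no normalization. The submitters' processing notes name mm10, RSEM 1.2.3 and DESeq2 without a role, so the counts may be rounded estimates; annotation and use of strand are not stated there. Gene symbols came from GENCODE M21 (GRCm38), which matched 51596 of 51789 IDs; 193 were left unnamed.

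edgeR 4.0.16 (R 4.3.3) fitted 1 quasi-likelihood model of the 4 groups, after filterByExpr and TMM, with 10 residual degrees of freedom and a common biological coefficient of variation of 0.236. The SE of a log2 fold change was derived from the test, as its absolute value over the square root of the quasi-likelihood F value. All p-values are two-sided. Adjusted p-values are Benjamini-Hochberg, over 17294 genes in the main fit and over the genes tested in each alternative. Those called unadjusted were not corrected for the number of genes. CPM uses library totals without TMM; 3 counts over the summed libraries of a group correspond to 0.0387 to 0.289 CPM, counting error only. The script was tested on simulated data. The DESeq2 1.42.0 test, limma 3.58.1 voom, other scalings and filters, thinning, a replicate block and leaving out each library were alternatives; leaving out muscle-rich or keratinocyte-rich libraries and summing gene copies were added after seeing the data.

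The 38 genes and all other lists were chosen with earlier results of these data known. Named in full were members past the test in NGS, up to 12, and the 4 (C57BI6, interaction) or 8 (strains) members with the smallest p; other genes were named by role or list, chosen after their values were seen. Gene copies were sought by aligning the last 300 bases of each member to whole transcripts, at 95% identity over 100 bases or more.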

Additional observations from a re-analysis of the deposited data

Results flagged for a closer look

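In 76 groups of 4 libraries (38 genes in each C57BI6 group), 2 held a library far from the other 3 by Dixon's test, which chance gives in about 1 in 20 groups. Slc2a1 was at 152 CPM in C57BI6 vehicle 3, against 126 to 129 CPM in the other 3 vehicle libraries. Bnip3l was at 265 CPM in C57BI6 ACSS2i 2, against 296 to 298 CPM in the other 3 treated libraries.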

How the results depend on the processing

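Of the 38 members, edgeR called 7 in NGS, 0 in C57BI6, 0 in the interaction and 14 between the vehicle groups. In NGS the count was 14 with the DESeq2 test, 2 with limma voom, 13 with no filter, 13 after thinning to the smallest library, 0 on the NGS libraries alone, 0 without the muscle-rich libraries and 16 without the keratinocyte-rich ones. In C57BI6 it was 2 with the DESeq2 test, 2 with limma voom and 1 on the C57BI6 libraries alone. In the interaction it was 2 with the DESeq2 test and 2 without the keratinocyte-rich libraries. Between the vehicle groups, the fit without the muscle-rich libraries holds 1 NGS vehicle library, and its median over the members was 0.23. Leaving out 1 library at a time gave 2 to 21 calls in NGS, 0 to 0 in C57BI6, 0 to 7 in the interaction and 10 to 18 between the vehicle groups. Over all genes the same fits called 118 to 1743, 15 to 122, 1 to 62 and 4608 to 6715, in that order. The cause was not tested. The median log2 fold change of the members kept its sign in every alternative, from -0.76 to -0.40 in NGS, -0.19 to -0.09 in C57BI6, 0.31 to 0.56 in the interaction and 0.20 to 0.35 between the vehicle groups when 1 library was left out. Members with a negative log2 fold change numbered 33 to 35 in NGS, 27 to 32 in C57BI6, 3 to 8 in the interaction and 8 to 14 between the vehicle groups.

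The numbers were not taken as pairing the libraries: correlations of same-numbered libraries were 0.01 to 0.186 in NGS (other numbers -0.19 to 0.112) and -0.23 to 0.231 in C57BI6 (other numbers -0.384 to 0.257). With the replicate number as a block the counts were 7 (6 of them the same genes, with Ldha lost and Bnip3l gained), 0, 0 and 12 (11 the same, with Slc2a1, Pfkl and Egln3 lost and Vegfa gained). Depth limits NGS, where the smallest library held 2846161 counts: Ankrd37 had 1 count in that library, NGS ACSS2i 2 (0.351 CPM).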
